A study of Danio rerio with 16 samples.

Results

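Cluster 9 is 1 of the 10 cell clusters into which the study divided single cells of adult zebrafish (Danio rerio) testes. Its members here are the 2874 transcripts listed in the sheet deposited for it, of 4916 transcripts listed for any cluster. For each transcript the sheet gives the share of cells of cluster 9 and the share of all other cells in which it was detected. These pairs of shares imply that cluster 9 held about 11% of the cells, in a range of about 4.5% to 21% over the 10 clusters. Of the 2874 transcripts, 867 had the higher share inside cluster 9 (called higher-share transcripts here), 2004 had the lower share and 3 had equal shares. A gene symbol was found for 2496 of them, and the rest are named by RefSeq accession.

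The listed transcripts were followed in 2 comparisons of AB fish. TP (n = 2) and CP (n = 3) are pseudo bulk-seq libraries, in which the counts of all single cells of a library are collapsed into 1 profile. TP fish were exposed for 1 h at 3 and 7 weeks after fertilization to 50 pg/ml of TCDD, a dioxin that activates the aryl hydrocarbon receptor, and CP fish to the vehicle, 0.1% DMSO, by the study's methods, and both were sampled at 1.5 years. CD (n = 3) and CI (n = 3) are 3′-end bulk-seq libraries of dissociated and contralateral intact testes of control fish of 1 year, with the same vehicle by their labels. The labels print the TCDD dose for the control libraries also, so control status was read from their titles. Dead cells had been removed from the dissociated suspensions. Exposures were run in successive blocks, which the labels do not assign to libraries.

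Sperm form in cysts, where spermatogonia divide, enter meiosis as spermatocytes and give rise to haploid spermatids. Round spermatids then elongate, build a flagellum around an axoneme of microtubules and dyneins, compact their chromatin and shed most of their cytoplasm and RNA. Transcripts for the flagellum are made from late meiosis onwards, and division genes act in the meiotic divisions that precede the spermatid.

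Cluster 9 carried most listed markers of spermatids, sperm and the flagellum, and clusters 7, 8 and 10 carried them too. Of 20 spermatid and sperm markers in the sheet, 17 had the higher share inside cluster 9, beside 867 of all 2874 listed transcripts. ropn1l, which encodes a protein of the sperm fibrous sheath and radial spokes, was detected in 95.1% of cells of cluster 9 and in 31.6% of all other cells. izumo1, whose mouse counterpart is needed for sperm to fuse with the egg, stood at 67.3% against 20.5%. In clusters 7, 8 and 10, ropn1l was in 93.1%, 98.9% and 95.7% of cells and izumo1 in 86.6%, 88.9% and 55.7%. These markers alone therefore do not set cluster 9 apart from those clusters. The exceptions were gapdhs, the glycolytic enzyme of the sperm tail in mammals, at 20.2% against 64.0%, spag7 at 5.6% against 46.2% and odf3l2a at 17.9% against 22.4%. The study names spermatogonial stem cells, spermatogonia, spermatocyte stages, round and elongating spermatids and a pair of sperm clusters in control testes, without tying a name to a sheet. No stage finer than late germ cells with spermatid and sperm markers was therefore assigned.

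Markers of the testis's somatic cells were absent from the sheet or in at most 11.4% of cells of cluster 9. Few were listed for any of the 10 clusters, so their absence here says little. Any sheet listed 1 marker of Sertoli cells, 3 of leukocytes, 2 of erythrocytes, 1 of muscle, endothelium and stroma, and 0 of Leydig cells. Of the Sertoli cell list only dmrt1, which is also a germ cell gene, was listed, at 5.5% against 60.4%, and no marker of leukocytes, Leydig cells, or muscle, endothelium and stroma was listed. The 1 erythrocyte marker in this sheet, cahz (a carbonic anhydrase), was in 11.4% of cells of cluster 9 and 4.4% of other cells, and in 61.1% of cells of cluster 8. Of 5 spermatogonial markers listed, 4 had the lower share inside, beside 2004 of all 2874 listed transcripts. piwil1, the piRNA-binding protein of early germ cells, stood at 17.3% against 80.1%, and tdrd9, a piRNA pathway helicase, at 0.6% against 37.4%. Only tdrd7a, at 35.3% against 31.2%, had the higher share. UMIs per cell and the number of cells are not in the files, so these shares carry no interval and could not be set at equal depth. A transcript enters a sheet only at 10.2% of cells or more on 1 side. For a transcript missing from a sheet no share is printed there, and that share may be low or high.

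The transcripts that set cluster 9 most apart from other cells ran through the late clusters as a block. The largest difference was that of XR_001800470, a non-coding record found in 96.8% of cells of cluster 9 and 16.5% of all others. srgn (NM_001171612), which encodes the granule proteoglycan serglycin, was in 96.6% of cells of cluster 9, 81.0% of cluster 7, 99.7% of cluster 8 and 79.2% of cluster 10, and in 0.9% to 15.7% of cells of clusters 1 to 6. tp53inp2a, a nuclear protein with a role in autophagy in mammals, was in 98.8% of cells of cluster 9 and 23.8% of others. fxyd3, a small regulator of the sodium pump, was in 87.6% and 17.9%, and degs2, a sphingolipid desaturase and hydroxylase, in 85.6% and 17%. cfap144, a cilia and flagella associated protein, stood at 91.9% against 24.6%, and mif4gdb, which binds the histone mRNA stem-loop protein in mammals, at 91.7% against 25.5%. XM_017354781, XM_021475996, si:dkey-111e8.4, si:ch211-155m12.5 and si:dkeyp-81f3.4 complete the 12 with the largest differences. Over the 867 higher-share transcripts the median share was 30.6% inside and 16% outside, 260 were in at least 50% of the cells of cluster 9, and 52 were in at least 90%.

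**Figure D1:**
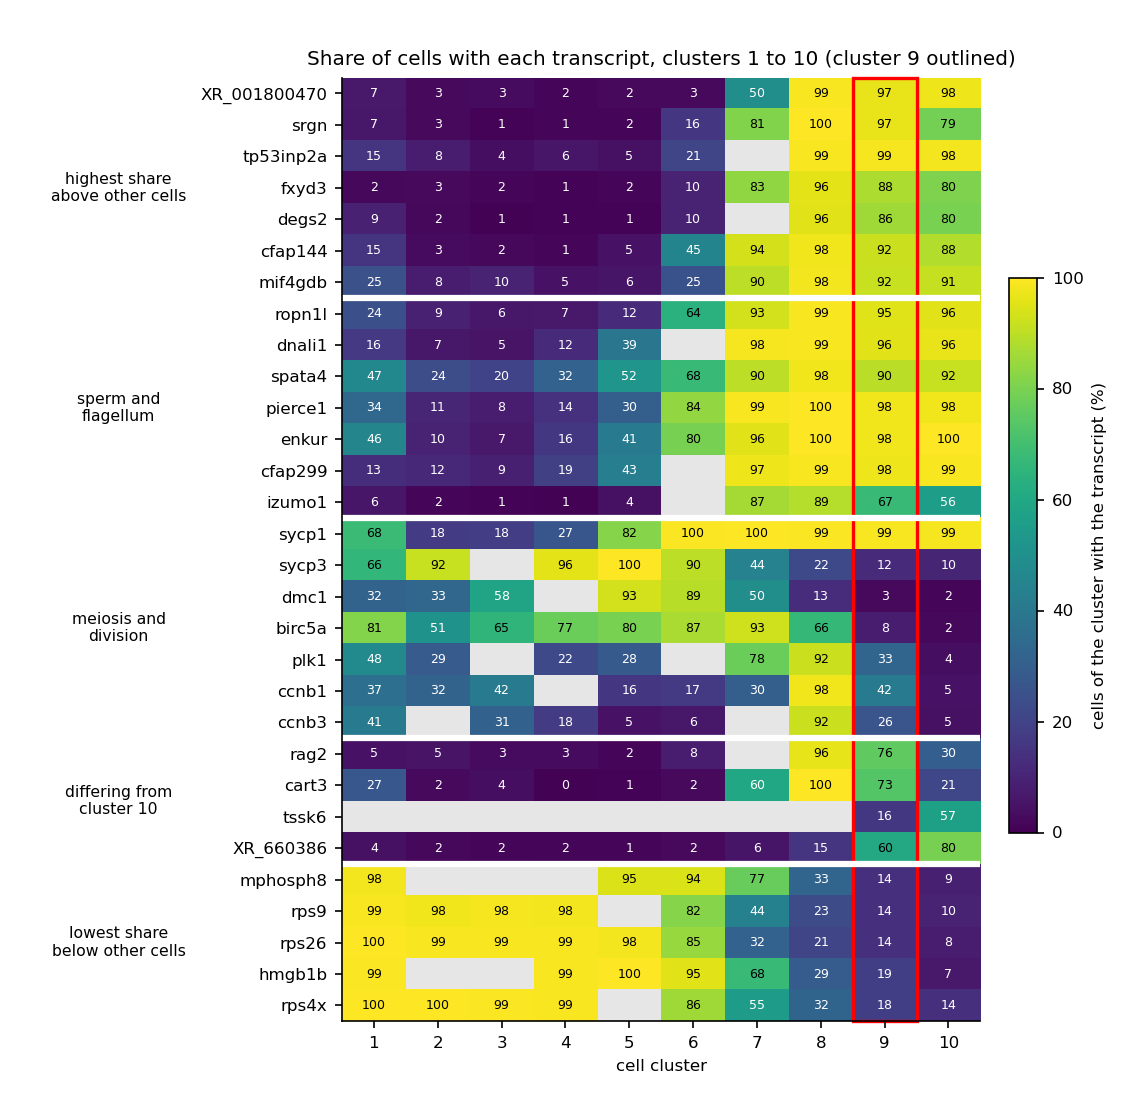
Share of cells (%, colour and number) in which each of 30 listed transcripts was detected in clusters 1 to 10, with cluster 9 outlined in red and grey where a sheet does not list the transcript. srgn, tp53inp2a and the sperm and flagellum transcripts are high from cluster 7 or 8 to cluster 10, birc5a, plk1, ccnb1 and ccnb3 drop between clusters 8 and 9, and rag2, cart3 and tssk6, chosen after their values were seen, differ between clusters 9 and 10.

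Most listed genes of the flagellum had the higher share inside cluster 9. Of 35 axonemal dyneins, their assembly factors and related spoke and regulator proteins, 32 had the higher share inside cluster 9. Among them dnali1, an inner-arm light intermediate chain, was in 95.7% of cells of cluster 9 and 37.5% of others, drc4, a subunit of the nexin-dynein regulatory complex, in 95.5% and 51.4%, and rsph9, a radial spoke head protein, in 93.1% and 29%. Of 42 cilia and flagella associated proteins, 39 were higher inside, such as pierce1, a protein inside the axonemal doublets, at 97.9% against 38.7%, and enkur, an adaptor of the sperm tail, at 97.9% against 39.8%. These lists are wider than their names. The dynein list takes in general dynein light chains, such as dynlrb1 at 93.6% against 82.7%. The cilia list takes in every gene named lrrc, armc, iqc or efcab. Of 15 intraflagellar transport genes, which carry cargo into a growing axoneme, 11 were higher inside, among them ift57 at 70.0% against 30.8% and ift46 at 87.4% against 72.1%, while kif3a, a motor of that transport, stood at 1.5% against 19.8%. Tubulins went the other way, with 1 of 11 higher inside, and tubb4b stood at 32.9% against 86.8%. That list goes by gene name and does not separate tubulins of the axoneme from others.

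Meiotic transcripts were unevenly kept in cluster 9. sycp1, which encodes the transverse filament of the synaptonemal complex, was in 99% of its cells and 53.1% of others, and syce2, of the central element, in 83.5% and 78.4%. sycp3, of the lateral element of the same structure, was in only 11.9% of cells of cluster 9 and 81.0% of others, and dmc1, the meiotic strand-exchange recombinase, in 2.6% and 54.1%. Of 17 meiotic genes listed, 3 had the higher share inside, beside 867 of all 2874 listed transcripts. Of 19 cell division genes 7 did, which is close to that part of the whole sheet. pttg1, a securin, stood at 92.0% against 65.8%, whereas top2a, the topoisomerase of condensing chromosomes, stood at 3.8% against 67.8%. Of 37 DNA replication genes only chaf1a, the chromatin assembly factor subunit, was higher inside, at 83.7% against 66.7%, and pcna, the replication clamp, was at 2.7% against 58.5%.

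The growth machinery was low in cluster 9 against all other cells, though not in cluster 9 alone. Of 83 ribosomal proteins 82 had the lower share inside, among them rps9 at 13.5% against 83.4%, rps26 at 13.7% against 83.3% and rps4x at 18.4% against 86.2%. These 3, with sycp3, mphosph8 (a reader of silenced chromatin, 13.5% against 83.8%) and hmgb1b (a DNA-bending chromatin protein, 18.6% against 87.4%), had the largest deficits. Nuclear-encoded respiratory chain genes were lower inside for 42 of 46, histones for 12 of 13 and other chromatin proteins for 19 of 21. Of all 2874 listed transcripts, 2004 were lower and 867 higher inside. Among 54 ubiquitin and proteasome genes 18 were higher inside, close to that part of the whole sheet. They included ube2b, a ubiquitin-conjugating enzyme needed for sperm formation in mice, at 92.5% against 26.8%.

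Cluster 9 and cluster 8 listed nearly the same transcripts, and cluster 9 had them in fewer cells. The 2 sheets shared 2454 transcripts, which was 85.4% of the sheet of cluster 9 and 82.1% of that of cluster 8. The median difference was −7.5 percentage points, cluster 9 minus cluster 8, and of the 813 shared higher-share transcripts 99.4% were lower in cluster 9. Over 10 points, 1093 transcripts were lower in cluster 9 and 5 were higher. The lowering was of a similar order for most transcripts. On the scale −ln(1 − share), which is the mean number of detected molecules per cell if molecules were scattered at random over cells and which was chosen after the shares had been seen, the ratio of cluster 9 to cluster 8 had a median of 0.514 over 1663 transcripts with shares of 2% to 99% in both, and 95.4% of them lay within 2-fold of that median. Of these ratios, 10% lay below 0.348 and 10% above 0.688. The median was 0.515 for spermatid and sperm genes, 0.561 for axonemal dyneins, 0.582 for cilia and flagella associated proteins and 0.630 for ribosomal proteins. Since UMIs per cell are not given, fewer transcripts in these cells and fewer molecules captured from them cannot be told apart.

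As a group, the division genes stood below that median ratio. The median ratio of cluster 9 to cluster 8 over 16 cell division genes was 0.253, and 11 meiotic genes had 0.394. ccnb1, cyclin B1 of the division kinase, was in 41.7% of cells of cluster 9 and 97.7% of cluster 8, a ratio of 0.143. plk1, the polo kinase of the spindle, was in 32.6% and 92.0% (ratio 0.156), and ccnb3, a further cyclin, in 26.2% and 91.8% (ratio 0.121). birc5a, the survivin subunit of the chromosomal passenger complex, was in 8.0% and 66.5% (ratio 0.076), and aurkb, the kinase of that complex, in 5.4% and 45.5% (ratio 0.091). arpc4l, an actin-branching subunit, at 16.6% against 76.1%, and kpna2, a nuclear importin, at 14.3% against 72.7%, complete, with ccnb1, plk1, ccnb3 and birc5a, the 6 largest deficits in points. Only 21 transcripts lay over 2-fold above the median ratio. XR_660386, a non-coding record, was in 60.3% of cells of cluster 9 and 15.3% of cluster 8 and was the only transcript over 25 points higher in cluster 9. XM_003201668 was in 19.8% and 3.1%, and XM_021466968 in 17.6% and 2.8%. XR_660787 at 32.8% against 21.9% and zgc:165555 at 17.6% against 7.4% are the other transcripts over 10 points higher.

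**Figure D2:**
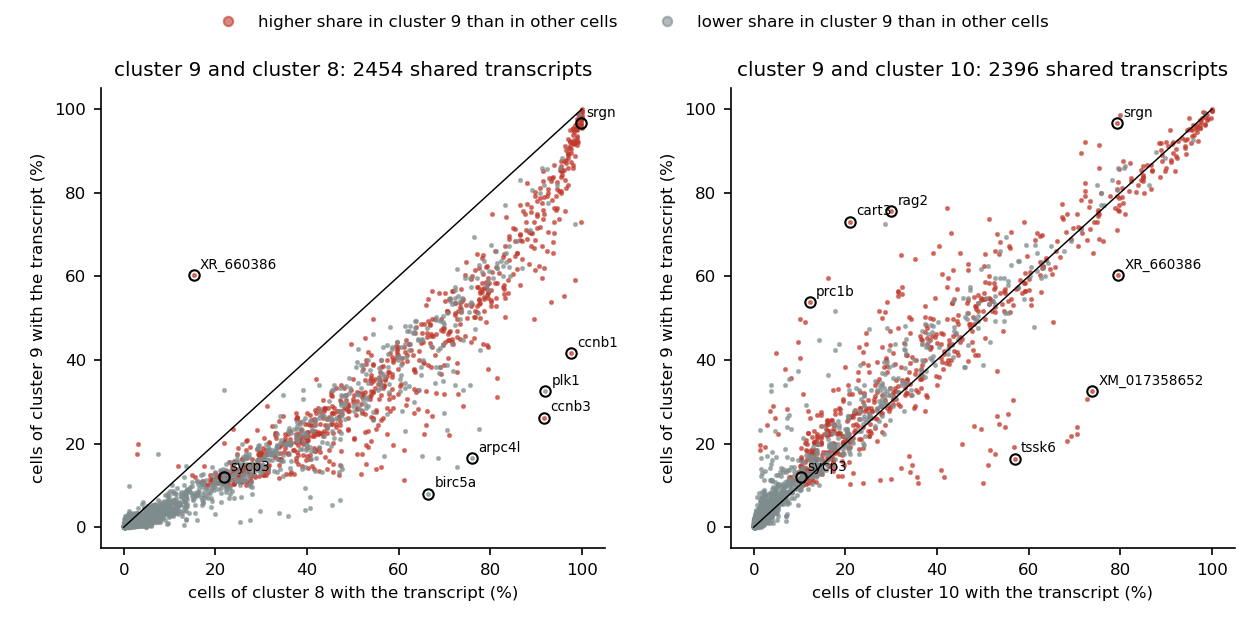
Share of cells (%) with each shared transcript in cluster 9 (vertical axis) against cluster 8 (left, 2454 transcripts) and cluster 10 (right, 2396 transcripts); red points have the higher share in cluster 9 than in all other cells, grey points the lower, and the line marks equal shares. Most points lie on or below the line on the left, with ccnb1, plk1, ccnb3, arpc4l and birc5a far below it and XR_660386 above it. On the right they lie along the line, with rag2, cart3 and prc1b above and tssk6 and XM_017358652 below.

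Cluster 10 was the closest to cluster 9 in level. The sheets shared 2396 transcripts, 83.4% of the sheet of cluster 9 and 84.5% of that of cluster 10, with a median difference of 0.6 points, cluster 9 minus cluster 10. Over 10 points, 161 were higher and 37 lower in cluster 9. The ratio of cluster 9 to cluster 10 had a median of 1.14 over 1408 transcripts, with 91.5% within 2-fold of it, 0.992 for spermatid and sperm genes and 1.04 for cilia and flagella associated proteins. It was 2.01 over 12 cell division genes and 1.65 over 10 intraflagellar transport genes. ccnb1 stood at 41.7% in cluster 9 against 4.9% in cluster 10, and plk1 at 32.6% against 3.8%, so both fell at each step from cluster 8 through cluster 9 to cluster 10. That order held for 317 of the 480 higher-share transcripts listed for all of clusters 7 to 10, while 156 had their lowest share of these 3 clusters in cluster 9 and 2 rose at each step. The further genes that follow were chosen after their values were seen. rag2, the recombinase subunit of lymphocytes, was in 75.6% of cells of cluster 9, 96.3% of cluster 8 and 30.0% of cluster 10. cart3, a neuropeptide precursor, was in 73.1% of cluster 9, 99.7% of cluster 8 and 21.1% of cluster 10, and prc1b, which bundles microtubules of the central spindle, in 53.9%, 93.2% and 12.2%. tssk6, a testis-specific kinase of late spermatids in mammals, ran the other way, at 16.4% in cluster 9 and 57.0% in cluster 10, and it was listed for no other cluster.

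Cluster 7 was the least alike of the 3. It shared 1833 transcripts with cluster 9, 63.8% of the sheet of cluster 9 and 69.7% of that of cluster 7, with a median difference of −10.7 points, cluster 9 minus cluster 7. Over 10 points, 36 were higher and 935 lower in cluster 9. The ratio of cluster 9 to cluster 7 had a median of 0.412, and 78.0% of 1262 transcripts lay within 2-fold of it, against 95.4% for cluster 8. birc5a was at 8.0% in cluster 9 and 92.9% in cluster 7, and top2a at 3.8% and 75.6%, a pair of transcripts still common in cluster 7. In the other direction chaf1a was at 83.7% in cluster 9 and 25.4% in cluster 7, and XR_660386 at 60.3% and 5.8%. The median share of the 480 higher-share transcripts listed for all of clusters 7 to 10 was 45.8% in cluster 9, 61.1% in cluster 7, 69.3% in cluster 8 and 38.8% in cluster 10, and 12.7% over clusters 1 to 6.

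Few transcripts were particular to the sheet of cluster 9. Of the 867 higher-share transcripts, 592 had their largest listed share in cluster 8, 199 in cluster 7, 44 in cluster 10 and 15 in cluster 9. In all, 83 listed transcripts were in none of the sheets of clusters 7, 8 and 10, and 78 of these had the lower share inside cluster 9. The 6 with the largest differences were all lower inside: XR_001796901 at 29.1% against 70.6%, naa10 (an acetyltransferase of protein N termini) at 21.5% against 59.7%, prpf6 (a splicing factor) at 9.8% against 44.1%, mpc1 (a mitochondrial pyruvate carrier subunit) at 13.2% against 47.1%, ppp2r1bb (a phosphatase scaffold) at 7.5% against 35.2% and eif3s6ip (a translation initiation subunit) at 4.3% against 31.5%. The 5 with the higher share, named after their values were seen, were slc27a6 (a fatty acid transport protein) at 12% against 4.6%, tefb (a bZIP factor), dynlt1b (a dynein light chain), si:ch73-272h24.1 and XM_001923708, none in over 15.1% of cells. Shares inside and outside a cluster are a description of cells that were grouped by these same genes and carry no test.

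The first comparison asked how the transcripts of cluster 9 stood in TCDD-exposed testes by pseudo bulk-seq. Of its higher-share transcripts most were lower in TP than in CP, flagellar and sperm genes among them, and none was called higher, while 17 of 36 replication genes with the lower share in cluster 9 were higher in TP, a count that fell to 0 without either TP library. In pseudo bulk-seq, fewer cells of a type and less RNA per cell cannot be told apart. From its single-cell clusters, the study reported that spermatids and sperm were a much smaller part of TCDD-exposed than of control cells. It found fewer clusters in TCDD-exposed than in control testes, without tying the missing ones to a sheet. By histology of intact tissue, it reported a smaller decrease of healthy sperm cells than in the single-cell data. It proposes that dissociation and capture added to the loss in those data. How much of the changes below goes with cell numbers was not tested. Library totals ran over 3,490,409 to 9,987,998 counts in this table and 7,968,350 to 29,144,951 in the CD and CI table, and values are given as CPM, counts scaled to a common library total. Summed CPM of the Sertoli list was 425 and 483 in TP against 319, 322 and 369 in CP. Most of this sum was dmrt1, also a germ cell gene, at 406 and 468 CPM in TP against 308, 314 and 351 CPM in CP. The sum is therefore no measure of Sertoli cells. That of leukocytes was 88.4 and 84.3 in TP against 106, 101 and 91.1 in CP. The part of these cells in the results below was not tested. The stroma list summed to 38.0 and 56.9 CPM in TP against 45.1, 52.1 and 45.5 in CP, the erythrocyte list to 6.46 and 7.05 against 16.4, 15.99 and 7.91, and no Leydig marker had a row.

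The 740 higher-share transcripts with a row in the pseudo bulk-seq table made up 4.00% and 3.60% of the TMM-scaled CPM in TP, against 21.1%, 12.1% and 14.3% in CP. Both TP libraries lay below every CP library. The other 127 had no row, and their median share over all cells was 6.55%. No row of that table falls under 30 counts in any library, so transcripts with few counts in a TP or a CP library could not enter. By edgeR's quasi-likelihood test with Benjamini-Hochberg adjustment over all 6847 rows, 653 of the 740 were lower in TP at an adjusted p under 0.05 and 0 were higher (1 at an unadjusted p under 0.05, and 692 lower). Over all rows, 19.4% were called lower and 8.69% higher, and 25.5% and 19.5% at an unadjusted p under 0.05. The median log2 fold change was −1.97, with 10% of the transcripts below −3.54 and 10% above −0.75, against 0.03 over all rows tested. In 709 of the 740, both TP libraries lay below all 3 CP libraries, which held for 32.8% of all rows. The study asked for a 2-fold change and an unadjusted p under 0.01, and by that rule TP was lower in 591 of the 740 and higher in 0, beside 13.8% and 1.37% of all rows. The count of 653 came down to 330 without TP2, and the lowering was found in both TP libraries.

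Transcripts with a larger gap in share between cluster 9 and all other cells were lower by more. Those other cells include clusters 7, 8 and 10. Shares and counts both come from single cells of this study, so this order is no separate evidence. All 234 tested transcripts with a share over 25 points higher inside cluster 9 were called lower, with a median of −3.06, and the 64 over 50 points higher had a median of −3.56. The higher-share lists of clusters 7, 8 and 10 overlap that of cluster 9 by 502, 710 and 518 tested transcripts, so they are no separate evidence. Their medians were −1.07 over 1411 for cluster 7, −1.35 over 1219 for cluster 8 and −2.30 over 552 for cluster 10, with 958, 909 and 502 called lower.

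srgn stood at 48.8 and 49.0 CPM in TP, against 965, 476 and 547 CPM in CP. Both TP libraries lay far below the lowest CP library, and the log2 fold change was −3.76 ± 0.36 (SE, edgeR adjusted p = 0.0017). fxyd3 had 23.9 and 26.5 CPM in TP against 524, 319 and 390 CPM in CP (−4.03 ± 0.28, adjusted p = 0.0017), and tp53inp2a 71.6 and 61.0 CPM against 1186, 575 and 592 CPM (−3.56 ± 0.39, adjusted p = 0.0018). cfap144 had 34.8 and 28.6 CPM in TP and 689, 359 and 475 CPM in CP, a log2 fold change of −4.0. In each of these the groups were apart and CP1 was the highest CP library. degs2 and mif4gdb had log2 fold changes of −3.55 and −3.56.

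Among the 8 listed transcripts with the deepest lowering, the first was XM_021475996, a record with no symbol, with 34.3 and 27.8 CPM in TP against 954, 532 and 542 CPM in CP (log2 fold change −4.45). ccdc166, a coiled-coil protein, followed at −4.42, lrrc51 (a leucine-rich repeat protein) and armc3 (an armadillo protein of flagella in mammals) at −4.28 each, and pih1d2, a dynein assembly cofactor, at −4.28. pierce1 had 65.3 and 73.8 CPM in TP and 1840, 957 and 1178 CPM in CP, and ckba, a creatine kinase, shared its log2 fold change of −4.25. izumo1 had 16.7 and 13.5 CPM in TP against 408, 196 and 234 CPM in CP, a log2 fold change of −4.21. All 8 were called at edgeR adjusted p values of 0.0017 to 0.0018.

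**Figure D3:**
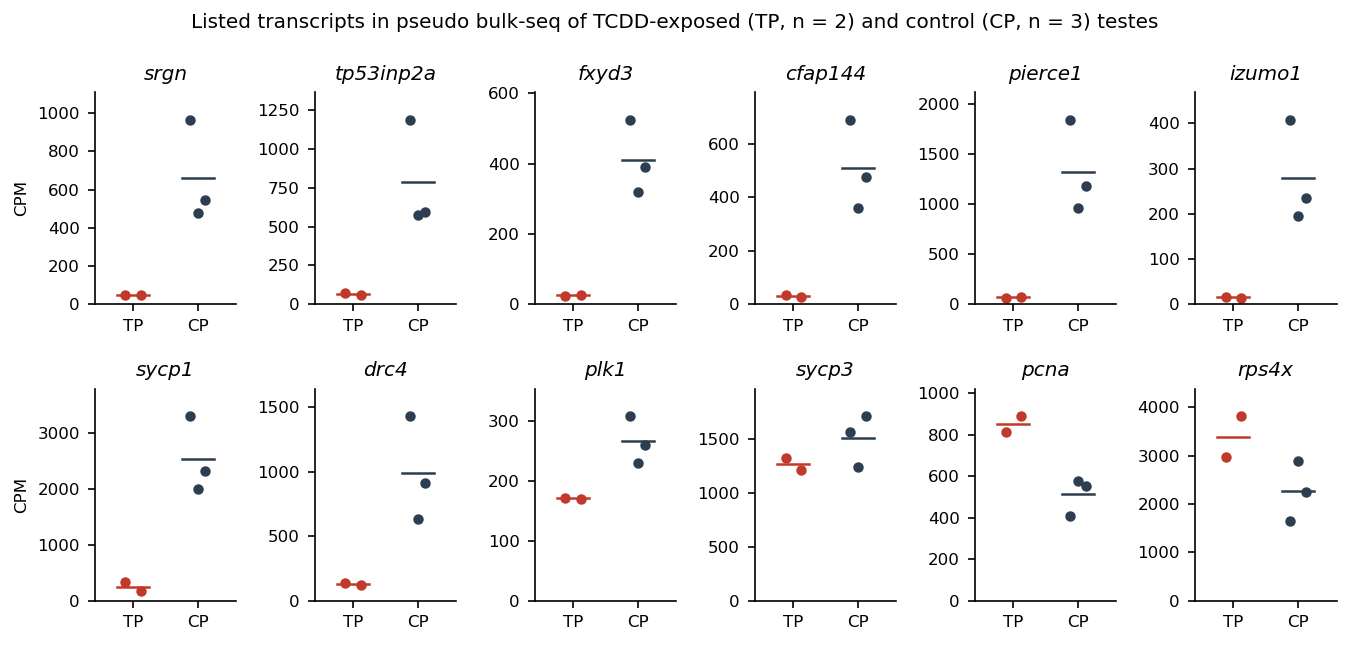
CPM of 12 listed transcripts in each pseudo bulk-seq library, TP (red, n = 2) left of CP (blue, n = 3), with bars at the means and each vertical axis starting at 0. srgn, tp53inp2a, fxyd3, cfap144, pierce1, izumo1, sycp1 and drc4 are lower in both TP libraries than in any CP library, plk1 is lower by less, the TP and CP libraries overlap for sycp3, and pcna and rps4x lie higher in TP.

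By list, every tested higher-share member of the flagellar and sperm lists was called lower in TP, beside 88.2% of all higher-share transcripts and 19.4% of all rows. So were all 234 transcripts over 25 points higher inside, so these counts are not read as particular to the flagellum. This was 28 of 28 in the list of axonemal dyneins and their assembly (median log2 fold change −2.72) and 33 of 33 in that of cilia and flagella associated proteins (−2.92). It was 11 of 11 intraflagellar transport genes (−1.92) and 15 of 15 spermatid and sperm genes (−3.29). Without TP2 these became 22, 23, 7 and 13. drc4 had 134 and 122 CPM in TP against 1430, 634 and 912 CPM in CP (−2.95), and enkur had −3.37. Among sperm genes ropn1l stood at −3.61, spata4 at −3.29 and hsf5, a heat shock factor of male germ cells, at −2.48. ift57, ift81 and ift46, which belong to 1 transport complex, stood at −2.95, −2.65 and −1.81. dnajb13, an HSP40 protein of the radial spoke, had 22.1 and 17.3 CPM in TP and 452, 211 and 284 CPM in CP (−4.01), and gpib, a glycolytic isomerase, −2.98. mcl1b, an anti-apoptotic BCL2 protein, had −1.76. Calls for gpib were lost without TP1 (adjusted p = 0.055) or without TP2 (adjusted p = 0.078).

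Of the meiotic genes, those common in cluster 9 were lower in TP and most of those rare in it missed the threshold. sycp1 had 338 and 167 CPM in TP against 3297, 1990 and 2320 CPM in CP. The TP libraries lay below all CP libraries, with a log2 fold change of −3.33 ± 0.38 (edgeR adjusted p = 0.0019). sycp3, in few cells of cluster 9, had 1321 and 1211 CPM in TP and 1564, 1241 and 1704 CPM in CP, with overlapping groups (−0.25, adjusted p = 0.32). syce2 was lower (−1.71), and so was dmc1 (276 and 196 CPM in TP against 637, 481 and 691 CPM in CP, −1.35 ± 0.23, adjusted p = 0.0073, lost without TP2 at 0.088). All 3 higher-share meiotic genes were called lower, with a median of −2.57, and of the 14 lower-share ones 5 were called lower and 0 higher (median −0.45). Lower calls made up 88.2% of all higher-share transcripts, 9.19% of all lower-share transcripts and 19.4% of all rows.

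Of 4 division genes named for their fall between clusters 8 and 9, plk1 and birc5a were called lower in TP and ccnb1 and ccnb3 were not. plk1 had 172 and 171 CPM in TP against 308, 230.6 and 260 CPM in CP, a log2 fold change of −0.64 ± 0.18 (edgeR adjusted p = 0.037) that was lost without either TP library (0.18 and 0.22). birc5a had 363 and 310 CPM in TP against 582, 425 and 557 CPM in CP (−0.63, adjusted p = 0.047, up to 0.30 without TP2). ccnb1 had 201 and 191 CPM in TP against 306, 248 and 228 CPM in CP (−0.41, adjusted p = 0.12), and ccnb3 122 and 106 CPM against 226, 144 and 169 CPM (−0.65, adjusted p = 0.066). pttg1, common in cluster 9, had −1.28 (adjusted p = 0.0059, 0.057 without TP1 and 0.073 without TP2). Of the 7 higher-share division genes 4 were called lower, a smaller part than the 88.2% of all higher-share transcripts. Their median was −0.74, and 0 were called without TP1 or without TP2. Of the genes described above for their difference from cluster 10, rag2, cart3 and prc1b were lower in TP: rag2 had 21.2 and 21.8 CPM in TP against 312, 184 and 180 CPM in CP (−3.39), cart3 26.9 and 26.3 CPM against 509, 298 and 298 CPM (−3.79), and prc1b 83.4 and 86.5 CPM against 333, 208 and 259 CPM (−1.65). si:ch211-222l21.1, also chosen after its values were seen and in 72.5% of cells of cluster 9 against 28.6% of cluster 10, was not called (−0.23, edgeR adjusted p = 0.31). XR_660386, which separated it from cluster 8, had 28.9 and 14.4 CPM in TP against 162, 77.5 and 106 CPM in CP (−2.42 ± 0.42, adjusted p = 0.0076, 0.065 without TP2).

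**Figure D4:**
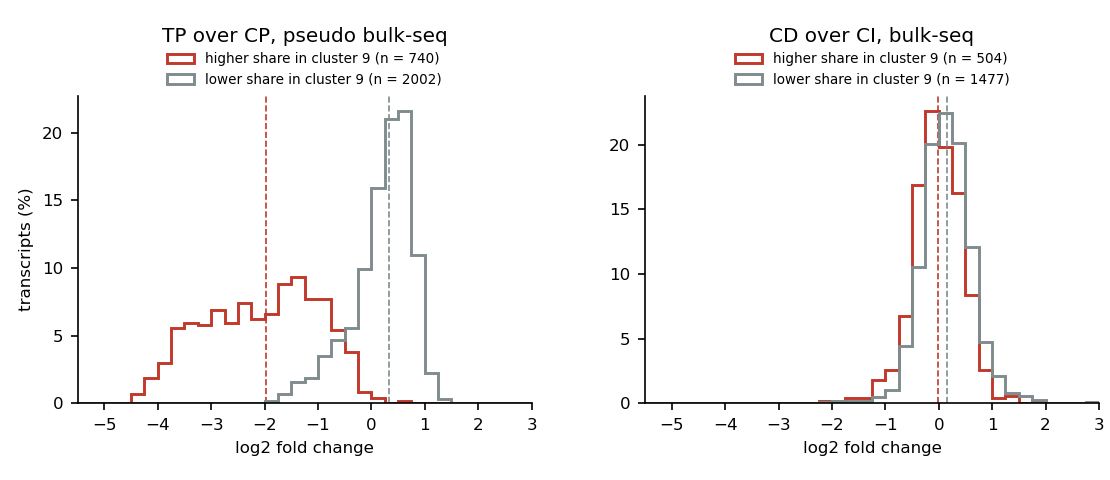
Distribution (% of transcripts per bin of 0.25) of log2 fold changes of transcripts with the higher (red) and lower (grey) share in cluster 9, for TP over CP (left) and CD over CI (right), with dashed lines at the medians. The red distribution lies at a median of −1.97 on the left, apart from the grey one at 0.33, and the distributions overlap on the right.

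Not all higher-share transcripts were called, and 87 of 740 missed the threshold. npm3, a nucleolar chaperone, had 234 and 252 CPM in TP against 242, 239 and 236 CPM in CP, with overlapping groups and shares of 51.8% inside and 45.7% outside. chaf1a, in 83.7% of cells of cluster 9 but in 66.7% of others, had 396 and 381 CPM in TP and 714, 490 and 477 CPM in CP, which misses the threshold. The highest log2 fold change was that of XM_003201668, with 64.2 and 93.3 CPM in TP against 45.9, 55.5 and 54.7 CPM in CP (0.60, edgeR adjusted p = 0.075). slc27a6, in none of the sheets of clusters 7, 8 and 10, had 7.71 and 6.17 CPM in TP and 20.8, 15.0 and 19.8 CPM in CP (−1.41, adjusted p = 0.0073, 0.091 without TP2).

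The 2002 lower-share transcripts in the table made up 67.8% and 73.9% of the TMM-scaled CPM in TP, against 54.4%, 63.6% and 60.3% in CP. Of these, 348 (17.4%) were called higher in TP and 184 (9.19%) lower, with a median log2 fold change of 0.33. Over all rows 8.69% were called higher and 19.4% lower. Higher calls were 117 of 314 among those with the largest listed share in cluster 3 and 58 of 158 among those with it in cluster 2, and none of either was called lower. Those with it in cluster 7 went the other way, with 11 of 212 higher and 107 lower. Single libraries moved these counts: the 348 called higher became 17 without TP1, 5 without TP2, 78 without CP3 and 710 without CP2. The 184 called lower became 38 without TP1, 13 without TP2 and 93 without CP3.

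Of 36 lower-share replication genes 17 were called higher in TP and 1 lower, with a median log2 fold change of 0.63. Over all lower-share transcripts 17.4% were called higher, and over all rows 8.69%. Without TP1 or without TP2 the 17 became 0, and without CP3 they became 8. pcna had 814 and 889 CPM in TP against 408, 579 and 552 CPM in CP (0.73 ± 0.19, edgeR adjusted p = 0.029), with groups apart, and the call was lost without TP1 (0.13), TP2 (0.19) or CP3 (0.072). tdrd9 had 229 and 277 CPM in TP against 110, 184 and 137 CPM in CP (0.81, adjusted p = 0.042, up to 0.25 without TP2), and piwil1 0.50 (adjusted p = 0.068). Of 82 lower-share ribosomal proteins 3 were called higher and 0 lower, with a median of 0.38. rps4x had 2972 and 3811 CPM in TP and 1654, 2894 and 2242 CPM in CP, all TP libraries above all CP libraries (0.58, adjusted p = 0.11).

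The largest increases among listed transcripts were in genes nearly absent from cluster 9. CPM are relative, and higher-share transcripts held a smaller part of each TP library. A rise of other transcripts in TP cannot be told apart from that. XR_661398, a non-coding record in 0.2% of its cells and 17.7% of others, had 163 and 59.8 CPM in TP against 26.6, 21.7 and 17.5 CPM in CP (2.35 ± 0.41, edgeR adjusted p = 0.0075), and the 2 TP libraries themselves differed widely. lman2, a cargo lectin of the secretory pathway, had 105 and 73.8 CPM in TP against 19.3, 32.5 and 45.1 CPM in CP (1.45, adjusted p = 0.021). mov10l1, a helicase that starts piRNA production, had 74.1 and 93.1 CPM in TP and 35.1, 21.9 and 41.3 CPM in CP (1.36, adjusted p = 0.014). ctdspl2b, a phosphatase, stood at 1.26 and nucks1a, a chromatin protein, at 1.21. The calls of lman2, ctdspl2b and nucks1a were lost without either TP library and that of mov10l1 without TP2, with adjusted p values of 0.056 to 0.14.

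The second comparison set dissociated against intact testes, and asked how the transcripts of cluster 9 stood after dissociation. The 504 higher-share transcripts tested made up 8.41%, 8.35% and 10.6% of the TMM-scaled CPM in CD, against 9.88%, 9.87% and 9.82% in CI. On that scale 1 CD library lay above all CI libraries and 2 below. TMM factors ran from 0.909 (CI2) to 1.08 (CD1), so these sums are not shares of a library's own counts. Such shares can order these libraries otherwise. By edgeR, 0 of the 504 transcripts were higher in CD and 6 lower, with a median log2 fold change of −0.01 against 0.01 over all rows. At an unadjusted p under 0.05, 32 were higher and 60 lower, beside 7.33% and 9.99% of all 12773 rows, and DESeq2 called 3 of the 504 higher and 21 lower. Over the 1982 listed transcripts tested, 12 were called higher and 12 lower (0.605% each), beside 0.258% and 1.96% of all rows. Of all 2874 listed, 881 had no row in this comparison, among them 360 of the 867 higher-share transcripts. With the replicate number as a block, these became 26 higher and 22 lower. The CD and CI testes were paired by fish, but no source says that the numbers mark the pairs. By the 2-fold rule with an unadjusted p under 0.01, CD was higher in 36 of all listed transcripts and lower in 20, beside 1.22% and 3.57% of all rows. In simulated data the edgeR test of this comparison recovered 14 of 98 changes of 2-fold, so few calls are no measure of how few transcripts changed.

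**Figure D5:**
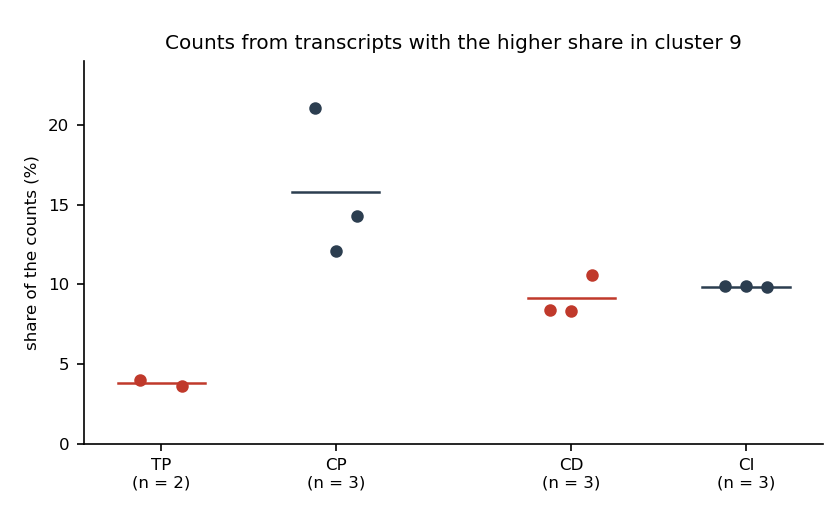
Share of each library's TMM-scaled CPM (%, axis labelled share of the counts) from higher-share transcripts of cluster 9. TP stands beside CP (740 transcripts) and CD beside CI (504), with points for libraries and bars for means. TP libraries stand at 4.00% and 3.60%, below the 12.1% to 21.1% of CP, while CD overlaps CI.

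Of 25 higher-share cilia and flagella associated proteins tested, 1 was called lower in CD, beside 1.96% of all rows. Of 22 in the dynein list and 10 intraflagellar transport genes, 0 were called lower. No gene of these 3 lists was called higher, and the median log2 fold changes were −0.16, 0.11 and 0.21. The 1 called lower was cfap126, named after its values were seen. It had 478, 660 and 546 CPM in CD against 903, 1112 and 1454 CPM in CI (log2 fold change −1.04, edgeR adjusted p = 0.030), and the groups were apart. ric3b, whose mammalian counterpart is a chaperone of acetylcholine receptors, had 40.7, 83.3 and 31.4 CPM in CD against 158, 209 and 179 CPM in CI (−1.81, adjusted p = 0.020). The largest lowering was that of b2ml, low in cluster 9. This gene, a beta-2-microglobulin of antigen presentation, had 287, 306 and 272 CPM in CD and 842, 1760 and 1168 CPM in CI (−2.12, adjusted p = 0.0016). tmsb4x, an actin-binding thymosin, stood at −1.35 and appa, the amyloid precursor protein, at −1.31, and both were also low in cluster 9. cnn3b, a calponin, had 18.3, 19.97 and 10.2 CPM in CD against 3.35, 4.37 and 5.00 CPM in CI (1.91, adjusted p = 0.019). ube2g2, a ubiquitin-conjugating enzyme, stood at 1.79, lyrm9 at 1.63 and prim1, the primase subunit, at 1.34. Of these 9, only b2ml and tmsb4x kept their call without each of the 6 libraries in turn, and without CD1, CD2 or CD3 the 12 higher calls became 3, 2 and 2 and the 12 lower calls 3, 5 and 3. Without CI2 there were 19 higher and 21 lower calls, and without CI3 there were 3 and 6.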

How the data were processed

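The study's methods describe single-cell libraries of about 5000 loaded cells on the 10x platform, with Cell Ranger 6.01 and Seurat 4.0.4 (per the labels), cells of at least 500 features, merged samples and clusters at resolution 0.3. The labels name GRCz11, and doublet treatment is not given in the sources used here. The deposited counts per RefSeq accession are unnormalized, pseudo bulk-seq for TP and CP and 3′-end reads for the bulk-seq tables. Cluster sheets, deposited by the authors, give shares of cells with a transcript inside and outside a cluster. Their fold changes and p-values were not used, and the sheets do not say which libraries' cells they pool.

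A table of TCDD against control bulk-seq carries column names that match the labels of the single-cell samples, so its libraries could not be assigned. It and 2 tables of pseudo bulk-seq against bulk-seq, 15 library columns in all, were not used. Symbols came from the RefSeq annotation by accession. edgeR 4.0.16 (R 4.3.3) quasi-likelihood fits used TMM, filterByExpr, the groups compared only and Benjamini-Hochberg adjustment. They were tested on simulated data with known changes. For TP against CP they recovered 45 of 100 changes at a log2 fold change of 1 in size and 98 of 100 at 2. For CD against CI they recovered 14 of 98 and 68 of 97, so most 2-fold changes were missed there. False calls numbered 10 and 9. DESeq2 1.42.0 and other settings were alternatives. The methods take CD and CI testes from the same fish, but no source says that the replicate numbers mark the fish. Deviations of same-numbered CD and CI libraries correlated by 0.26, 0.04 and −0.06. Values of single genes in CD against CI are from the fit without a block. The methods name independent exposure experiments, but no source ties a library to one, so p-values measure the spread between these libraries.

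Named transcripts followed 5 rules: the 12 highest and 6 lowest differences of share, the 6 most different from cluster 8 in each direction with the 6 in no sheet of clusters 7, 8 and 10, the 8 largest fold changes in each direction in TP against CP, up to 4 called in each direction in CD against CI, and up to 4 per gene list by CPM in CP. Members and lists were chosen with earlier results of these data known. Some listed genes are not reported here.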

Additional observations from a re-analysis of the deposited data

How the results depend on the processing

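Among single genes whose fold change is given, no direction changed under any alternative. Of their tests in TP against CP, 32 lost the call and 7 gained one, and in CD against CI 27 lost it, nearly all without 1 library. In TP against CP, leaving out 1 library gave 343 to 925 lower calls for the 839 over all listed transcripts and 5 to 710 higher calls for the 348, all of which are lower-share. It gave 330 to 684 lower calls for the 653 higher-share and 13 to 239 for the 184 lower-share transcripts. With the replicate number as a block, higher calls became 567. The numbers were not taken to pair these libraries, since only 2 pairs exist (their deviations correlated by 0.26 and 0.42). At an unadjusted p under 0.01 with a log2 fold change of at least 1, the 348 became 46 and the 184 became 79, and among higher-share transcripts only there were 0. In CD against CI, the 12 higher and 12 lower calls became 71 and 44 with DESeq2 and 26 and 22 with the replicate number as a block. They became 36 and 20 at the unadjusted threshold, 0 and 6 in higher-share transcripts only, and 2 to 19 and 3 to 21 without 1 library. For higher-share transcripts the 0 higher and 6 lower became 3 and 21 with DESeq2, 4 higher with the block, 2 and 10 at the unadjusted threshold, and 0 to 1 and 1 to 10 without 1 library. The cause of these changes was not tested. The planned comparison of TCDD and control bulk-seq and its alternatives were not run, since the library columns of that table could not be assigned.

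At 25 points in place of 10, transcripts higher and lower in cluster 9 numbered 1 and 200 against cluster 8, 16 and 438 against cluster 7, and 27 and 22 against cluster 10. Among higher-share transcripts only, 3 were higher and 673 lower than in cluster 8 and 361 lower than in cluster 7. By gene symbol, 3 were higher than in cluster 8 and 21 lower than in cluster 10. The deposited shares allow no interval, and the 30-count floor of the pseudo bulk-seq table leaves the rarest transcripts unseen.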

Other observations

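The 297 transcripts listed for all 10 clusters included none with its largest share in cluster 9. Their median share was 42.0% of cells in cluster 9, 64.8% in cluster 8, 55.8% in cluster 7 and 33.2% in cluster 10, and 131 of them were most common in cluster 8. Kinases of the zebrafish pim-related family were among the transcripts lowest in cluster 9 relative to cluster 10, on the −ln(1 − share) scale: pimr67 had a ratio of 0.252 and pimr172 one of 0.281, beside 0.212 for tssk6. tusc2a, a mitochondrial protein, had the lowest ratio of cluster 9 to cluster 8, 0.059, among transcripts with shares of 2% to 99% in both. These genes were chosen after their values were seen.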
